A study of Caenorhabditis elegans with 12 samples.

Results

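Cytochrome P450 enzymes are represented here by 74 of the 46778 genes in the tables, chosen as every gene whose WormBase name is *cyp-* followed by a family number. Cytochrome P450s are heme enzymes that insert an oxygen atom from molecular oxygen into lipids, hormones and foreign compounds, with electrons passed on by a reductase or by cytochrome b5. In *C. elegans* many of them act in the intestine on xenobiotics, and others make eicosanoids from polyunsaturated fatty acids or lipids of the eggshell. By similarity to vertebrate enzymes, families 13, 25 and 43 are counted below as CYP3-like, families 14 and 33 to 36 as CYP2-like, families 29, 31, 32, 37 and 42 as CYP4-like, and *cyp-44A1* as the mitochondrial type. The 74 genes belong to 15 families and 25 subfamilies, and 45 of them lie within 20000 bp of another member, in 11 runs of neighbours.

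RNA was measured in whole adult worms of the N2 strain fed bacteria for *lpin-1* RNAi or for control RNAi, and the control RNAi worms are called WT. LPIN-1 is the worm lipin, a phosphatidic acid phosphatase of lipid synthesis, and the question was how its knockdown and dietary glucose change gene expression. The 4 groups, with 3 replicates each, were *lpin-1(RNAi)* worms on a glucose-rich diet (glucose-fed) and on a control diet (control-fed), and WT worms on the same diets. All worms received RNAi bacteria from the egg stage, 10 mM IPTG to induce the double-stranded RNA, and 10 μM FUdR from day 1 of adulthood to stop progeny from hatching, at a maintenance temperature of 20 °C. The glucose-rich plates held 2% added glucose from day 1. RNAi by feeding is a partial knockdown, the labels do not say whether replicates were separate cultures, and *p*-values therefore measure the spread between these libraries, which may be technical.

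The 12 libraries held 16546027 to 31534284 counts. *lpin-1* itself averaged 112 ± 9.30 CPM (counts per 1000000, SD, n = 3) in *lpin-1(RNAi)* worms and 165 ± 15.8 CPM in WT worms on glucose-rich diets, and 89.3 ± 5.01 CPM and 158 ± 12.3 CPM on control diets. The log2 fold changes were -0.56 (adjusted *p* = 0.000615) and -0.82 (adjusted *p* = 1.62e-05), so transcript remained in every *lpin-1(RNAi)* library. The summed CPM of 8 intestinal markers was 536 to 603 in *lpin-1(RNAi)* worms against 1035 to 1181 in WT worms on glucose-rich diets, and 742 to 836 against 1192 to 1318 on control diets. All 8 were above 0 in all 12 libraries. Most of the intestinal sum in WT worms was *act-5* and *vha-6*. With *lpin-1* RNAi *vha-6* (log2 fold change -1.84 on glucose-rich and -1.84 on control diets) and *ifb-2* (-1.43 and -1.14) fell on both diets. *elt-2* (0.84, not called, and 1.11) and *elt-7* (0.89, not called, and 1.03) rose on control diets. *act-5* (-0.89 and -0.40), *ges-1* (-0.88 and -0.92), *pept-1* (-0.68 and -0.20) and *pho-1* (0.51 and 0.61) were not called. The sum over 6 hypodermal markers, mostly the collagen *col-19*, was 936 to 1201 CPM in *lpin-1(RNAi)* worms against 2269 to 2758 CPM in WT worms on glucose-rich diets. On control diets it was 425 to 556 CPM against 2253 to 2767 CPM. Only *col-19* was called with *lpin-1* RNAi (-1.34 on glucose-rich and -2.69 on control diets). *lin-26* (-0.10 and -0.25), *dpy-7* (-0.11 and -0.16), *bli-1* (-0.80 and -1.22), *rol-6* (0.81 and -0.86) and *dpy-13* (0.93 and -0.67) were not called. Glucose raised *dpy-7* in both RNAi groups (log2 fold change 2.91 in *lpin-1(RNAi)* and 2.86 in WT worms). It raised *col-19* in *lpin-1(RNAi)* worms (1.31) but not in WT worms (-0.04), a difference of 1.36 that was also called. No intestinal or neuronal marker was called with glucose. The 6 neuronal markers summed to 342 to 394 CPM in *lpin-1(RNAi)* worms against 206 to 210 CPM in WT worms on glucose-rich diets, and to 390 to 399 CPM against 201 to 221 CPM on control diets. Most of this sum was *snb-1* (log2 fold change 0.97, not called, on glucose-rich diets and 1.18 on control diets), *unc-64* rose on both (1.01 and 1.2), and *unc-119* (-0.03 and 0.04), *ric-4* (-0.17 and -0.28), *rab-3* (0.41 and -0.01) and *egl-3* (0.74 and 0.60) were not called. In whole worms, fewer cells of a type and less RNA per cell cannot be told apart, and the part of these shifts in the P450 results below was not tested.

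Of the 74 P450 genes, 60 passed the filter on low counts and were tested, and 34 of these were called in at least 1 of 5 comparisons. A call required an adjusted *p* under 0.05 and a log2 fold change of more than 1 in size (edgeR's quasi-likelihood test over all genes). Summed over all 74 genes, the P450 level was 931 ± 47.9 CPM in glucose-fed *lpin-1(RNAi)* worms, 870 ± 26.1 CPM in control-fed *lpin-1(RNAi)* worms, 954 ± 67.2 CPM in WT worms on glucose-rich diets and 731 ± 62.5 CPM in WT worms on control diets (SD, n = 3). These sums differed by at most 1.3-fold between paired groups, while the genes that made them up changed places. Per kilobase of exon (RPKM), *cyp-31A2*, which acts with the P450 reductase in making eggshell lipids, led in 3 groups with 68.5, 65.4 and 87.9 RPKM in glucose-fed *lpin-1(RNAi)* worms, in control-fed *lpin-1(RNAi)* worms and in WT worms on control diets. In WT worms on glucose-rich diets *cyp-35A2*, a xenobiotic-inducible gene, led with 116 ± 15.9 RPKM, which was 19.6% of the summed P450 level per length. After *cyp-31A2*, the order in control-fed *lpin-1(RNAi)* worms was *cyp-14A5* (45.3 RPKM), *cyp-33C8* (38.7 RPKM) and *cyp-13A5* (38.5 RPKM), none of which was among the first 8 in WT worms on control diets.

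**Figure D1:**
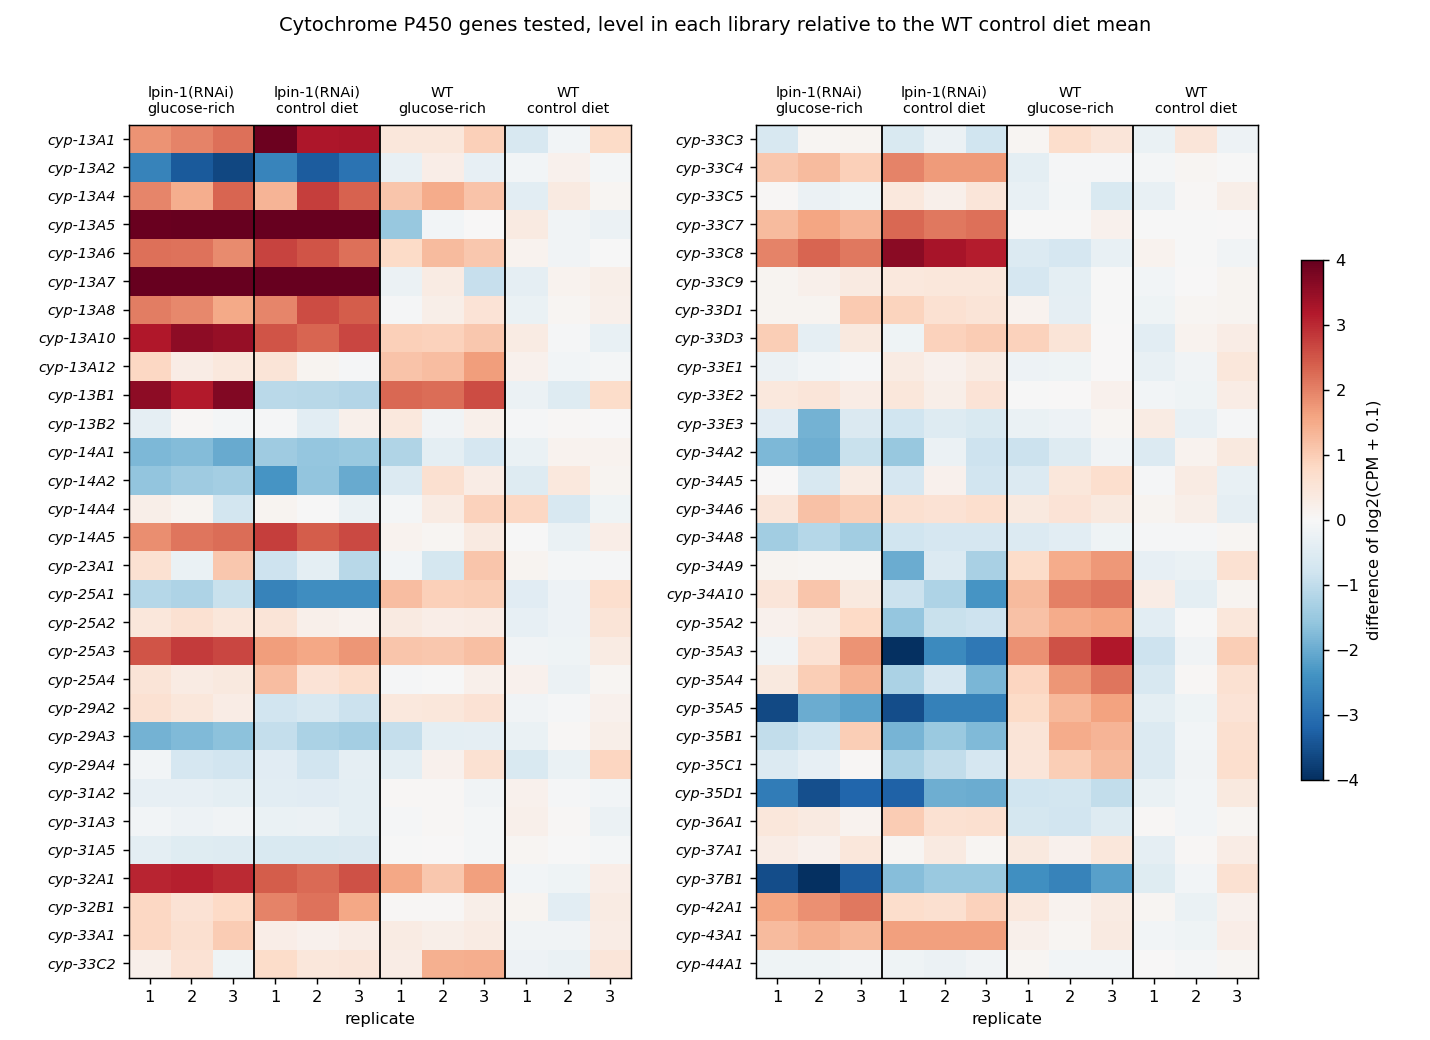
Each row is 1 of the 60 tested P450 genes and each column 1 library, coloured by the difference of log2(CPM + 0.1) from the mean of the 3 WT libraries on control diets, with colours ending at 4 in either direction. The dark red rows of *cyp-13A5* and *cyp-13A7* fill all 6 *lpin-1(RNAi)* columns, while the blue row of *cyp-37B1* is deepest in glucose-fed *lpin-1(RNAi)* worms.

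*lpin-1* RNAi moved P450 genes in both directions on both diets. On glucose-rich diets 15 of the 60 tested members rose (8.04% of all tested genes were called up) and 12 fell (4.21% were called down). On control diets 15 rose (10.0% of all tested genes were called up) and 16 fell (5.61% were called down). Scaled by library totals alone, which shifts the median of all genes by 0.25 there and by 0.198 on glucose-rich diets, the split on control diets was 19 up and 12 down. The shares of all tested genes given above hold for the main scaling, and those under library totals were not worked out. The 13 genes that rose on both diets were 86.7% of each list of 15, and over all tested genes 966 rose on both, 81.8% of the 1181 on glucose-rich diets and 65.8% of the 1469 on control diets. The 12 that fell on glucose-rich diets were among the 16 that fell on control diets, 100% and 75% of these lists, and over all tested genes 507 fell on both, 82% of the 618 and 61.5% of the 825. The median log2 fold change over the tested members was -0.08 on glucose-rich diets and 0.03 on control diets, against 0.03 and 0.00 over all tested genes. By the adjusted *p* alone, 18 members rose (16% of all tested genes) and 17 fell (15.8%) on glucose-rich diets, and 20 rose (19.5%) and 21 fell (19.8%) on control diets. CYP3-like genes, 16 of the 60 tested members, made up 9 of the 15 increases on each diet. CYP2-like genes, 31 of the 60, made up 8 of the 12 decreases on glucose-rich diets and 11 of the 16 on control diets.

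**Figure D2:**
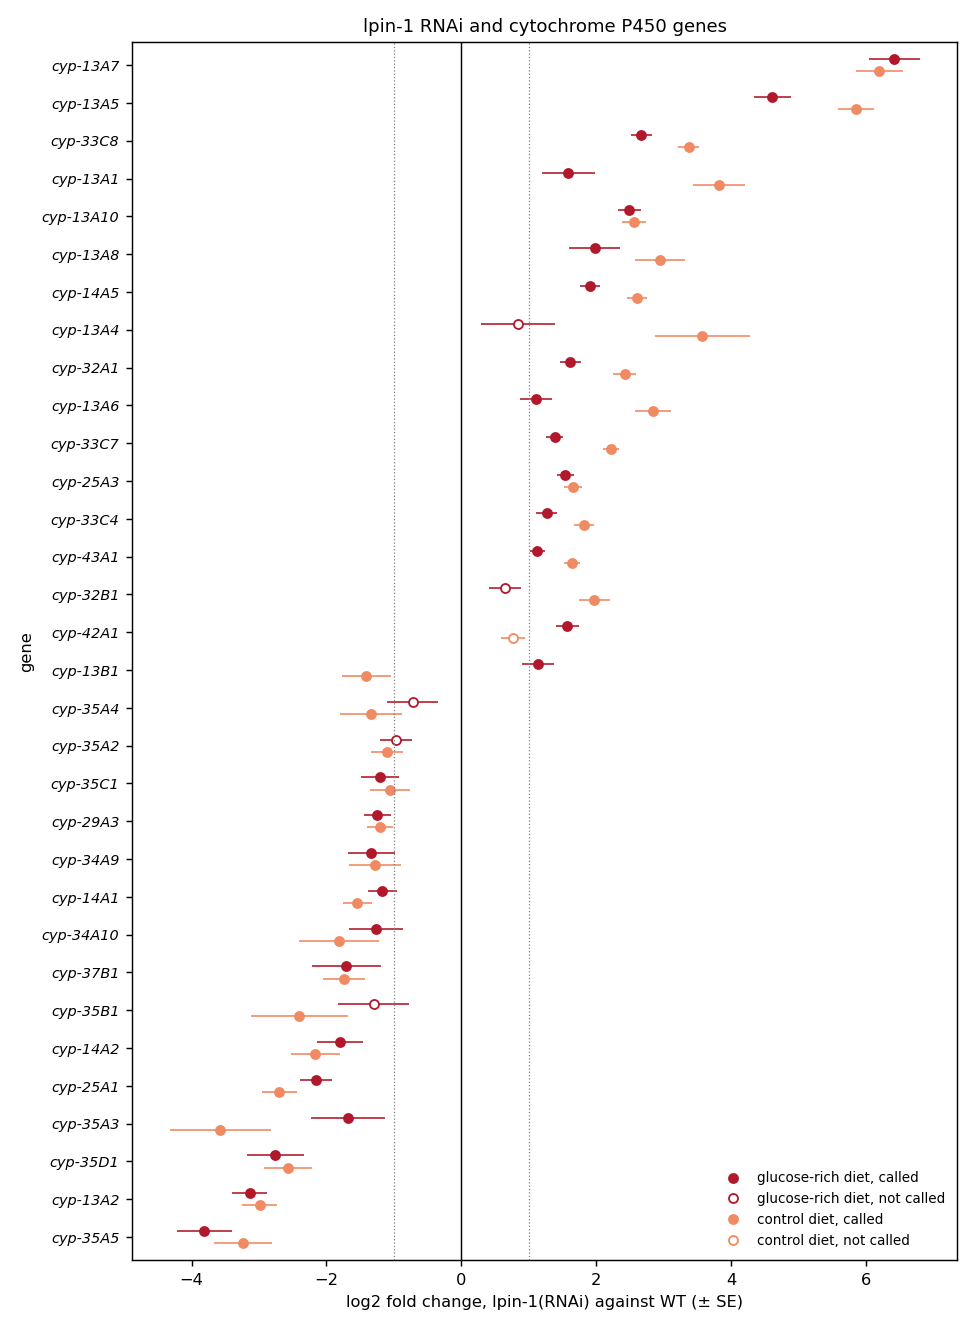
Log2 fold changes (± SE) of *lpin-1(RNAi)* against WT worms for the 32 P450 genes called on either diet, with filled points for called and open points for not called, and dotted lines at the fold threshold. *cyp-13A7* and *cyp-13A5* stand at the top with 6.42 and 4.61 on glucose-rich diets, *cyp-35A5* is lowest with -3.81, and *cyp-13B1* has its points on opposite sides of 0.

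The highest increases came from a run of 8 *cyp-13A* genes on chromosome II (9779181 to 9807569, WBcel235), CYP3-like enzymes of which *cyp-13A7* is known to be inducible by rifampicin. *cyp-13A5* had 18.3, 26.4 and 19.1 CPM in glucose-fed *lpin-1(RNAi)* worms and 72.2, 63.5 and 56.7 CPM in control-fed *lpin-1(RNAi)* worms. Its WT values were 0.319, 1.02 and 1.12 CPM on glucose-rich diets and 1.45, 0.981 and 0.921 CPM on control diets. The groups were far apart in every library, and the log2 fold changes with *lpin-1* RNAi were 4.61 ± 0.27 (SE, adjusted *p* = 4.73e-08) and 5.86 ± 0.27 (adjusted *p* = 2.69e-09). *cyp-13A7* had 7.62, 7.58 and 5.75 CPM in *lpin-1(RNAi)* worms and 0.0639, 0.140 and 0 CPM in WT worms on glucose-rich diets. On control diets it had 7.82, 6.76 and 7.92 CPM in *lpin-1(RNAi)* worms and 0.0482, 0.109 and 0.126 CPM in WT worms. WT worms thus had next to no reads of it, 5 counts in all on glucose-rich diets and 7 on control diets. The ratio of summed counts, scaled for depth, was 90.8 (95% interval 38.7 to 280.8, counting error only) on glucose-rich diets and 76.5 (36.9 to 191) on control diets. Without WT replicate 2 on glucose-rich diets, which held 4 of the 5 counts, the fitted log2 fold change of *cyp-13A7* was 7.73 in place of 6.42.

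The neighbours of *cyp-13A5* and *cyp-13A7* rose less or, in 1 case, fell. *cyp-13A1* had 0.963, 1.12 and 1.3 CPM in *lpin-1(RNAi)* worms against 0.319, 0.315 and 0.487 CPM in WT worms on glucose-rich diets, and 4.56, 2.77 and 2.82 CPM against 0.0965, 0.182 and 0.418 CPM on control diets. *cyp-13A8* had 0.879, 0.782 and 0.571 CPM against 0.128, 0.175 and 0.244 CPM on glucose-rich diets and 0.806, 1.33 and 1.17 CPM against 0.0965, 0.145 and 0.167 CPM on control diets. Neither gene's *lpin-1(RNAi)* and WT libraries overlapped on either diet, and the log2 fold changes were 1.59 and 3.83 for *cyp-13A1* and 1.98 and 2.94 for *cyp-13A8*, on glucose-rich and on control diets. *cyp-13A6* had 1.72, 1.67 and 1.35 CPM in *lpin-1(RNAi)* worms against 0.575, 0.840 and 0.731 CPM in WT worms on glucose-rich diets, and 2.45, 2.17 and 1.70 CPM against 0.338, 0.254 and 0.293 CPM on control diets. It rose by 1.11 and 2.84 on the log2 scale without overlap, the increase on glucose-rich diets being lost without replicate 1 of the *lpin-1(RNAi)* or the WT group there (0.97 and 0.99). Its exons overlap the gene T10B9.13 on the other strand. *cyp-13A4* rose on control diets alone, with 46 counts over the *lpin-1(RNAi)* libraries and 3 over the WT libraries, a scaled ratio of 13.1 (4.22 to 66). For *cyp-13A1* and *cyp-13A4* the log2 fold changes on control diets were 4.51 without WT replicate 3 and 4.33 without WT replicate 2, in place of 3.83 and 3.57. *cyp-13A3* was too low to test, with 2, 3 and 2 counts in *lpin-1(RNAi)* worms against 1, 0 and 1 in WT worms on glucose-rich diets and 5, 12 and 5 against 0, 4 and 2 on control diets.

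*cyp-13A2*, in the same run and on the same strand as *cyp-13A1*, went the other way. Its levels were 3.14, 1.90 and 1.55 CPM in *lpin-1(RNAi)* worms against 16.7, 24.7 and 16.3 CPM in WT worms on glucose-rich diets, and 3.23, 1.96 and 2.55 CPM against 19.1, 23.1 and 19.5 CPM on control diets. The lowest WT library was over every *lpin-1(RNAi)* library, and the log2 fold changes were -3.14 ± 0.26 (adjusted *p* = 1.07e-06) and -2.99 ± 0.26 (adjusted *p* = 8.3e-07). Of the 7 tested genes of the run, 5 rose and 1 fell on glucose-rich diets (8.04% and 4.21% of all tested genes). On control diets 6 rose and 1 fell (10.0% and 5.61% of all tested genes). *cyp-13A10*, on the same chromosome but outside the run, had 15, 19.7 and 18.3 CPM in *lpin-1(RNAi)* worms against 3.07, 3.01 and 3.36 CPM in WT worms on glucose-rich diets, and 9.27, 8.23 and 10.3 CPM against 1.98, 1.49 and 1.26 CPM on control diets. These groups did not overlap either, with log2 fold changes of 2.49 and 2.56.

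**Figure D3:**
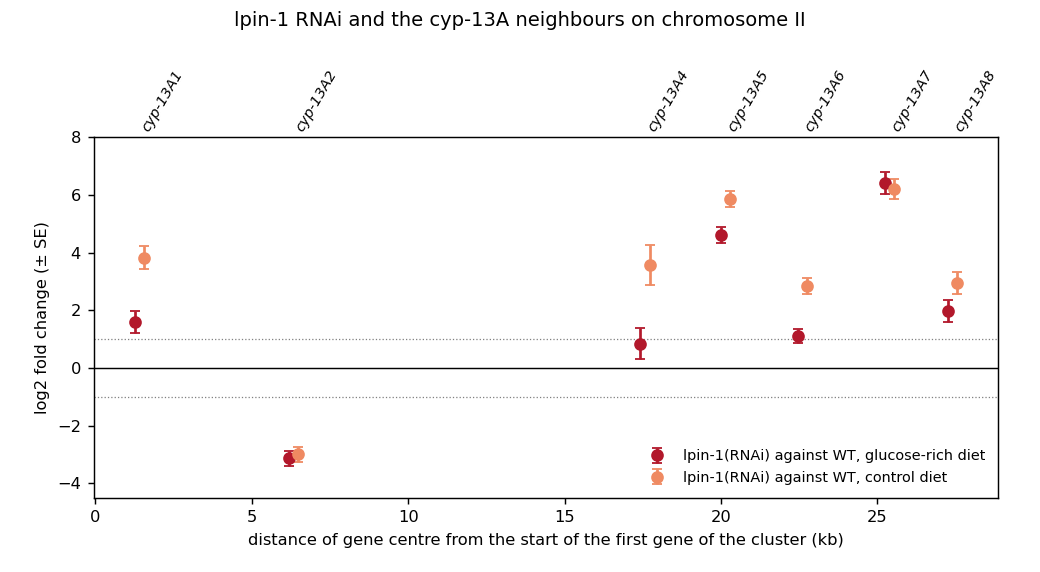
Log2 fold changes (± SE) of *lpin-1(RNAi)* against WT worms for the 7 tested *cyp-13A* neighbours on chromosome II, by the distance of each gene's centre from the start of the first gene, with points of the 2 diets drawn slightly apart. *cyp-13A2* is the one gene below 0, at -3.14 and -2.99, between *cyp-13A1* at 1.59 and 3.83 and *cyp-13A4* at 0.84 and 3.57.

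Other members raised by *lpin-1* RNAi were spread over families 14, 25, 32, 33, 42 and 43. *cyp-33C8*, a CYP2-like gene on chromosome V, had 24.6, 31.4 and 26.9 CPM in *lpin-1(RNAi)* worms against 4.22, 3.85 and 5.02 CPM in WT worms on glucose-rich diets, and 76.2, 61.6 and 55.5 CPM against 6.90, 6.14 and 5.65 CPM on control diets. Its log2 fold changes of 2.67 ± 0.16 (adjusted *p* = 4.45e-08) and 3.37 ± 0.15 (adjusted *p* = 2.88e-09) came without overlap between the groups. *cyp-33C7* rose by 1.38 and 2.22 and *cyp-33C4* by 1.26 and 1.82, both from a run of 5 *cyp-33C* genes, whereas the tested neighbours *cyp-33C3* and *cyp-33C5* had -0.57 and 0.19 on glucose-rich diets and -0.58 and 0.37 on control diets and were not called. Reads of *cyp-33C3*, *cyp-33C4* and *cyp-33C5* were divided with other genes in some libraries, so the split among these near copies is uncertain. *cyp-14A5* averaged 49.4 ± 6.42 CPM in *lpin-1(RNAi)* worms against 13.2 ± 1.38 CPM in WT worms on glucose-rich diets and 70.7 ± 8.24 CPM against 11.6 ± 2.17 CPM on control diets, with log2 fold changes of 1.90 and 2.61. *cyp-43A1* (1.13 and 1.64) and *cyp-32A1* (1.61 and 2.42) also rose on both diets. *cyp-43A1* shares exonic sequence with C41G11.1 on the other strand.

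*cyp-32B1*, a CYP4-like gene, had 2.47, 2.04 and 2.40 CPM in *lpin-1(RNAi)* worms against 1.41, 1.40 and 1.61 CPM in WT worms on glucose-rich diets. On control diets it had 5.61, 6.36 and 4.14 CPM against 1.45, 0.981 and 1.72 CPM. It rose on control diets by 1.97 (adjusted *p* = 1.25e-05), and its log2 fold change of 0.64 on glucose-rich diets (adjusted *p* = 0.0542) was not called. *cyp-42A1*, which the study had taken into a lifespan screen, had 10.6, 12.7 and 15.4 CPM in *lpin-1(RNAi)* worms against 4.73, 3.89 and 4.44 CPM in WT worms on glucose-rich diets, and 5.77, 5.46 and 6.75 CPM against 3.71, 2.91 and 3.89 CPM on control diets. Every *lpin-1(RNAi)* library was above every WT library on the same diet. The log2 fold change of 1.57 ± 0.17 on glucose-rich diets was called (adjusted *p* = 1.38e-05), and that of 0.77 ± 0.18 on control diets was below the fold threshold (adjusted *p* = 0.00357).

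The *cyp-25A* genes on chromosome III (3832591 to 3852080) lie next to each other and moved apart. *cyp-25A1* had 5.44, 5.1 and 6.48 CPM in *lpin-1(RNAi)* worms against 28.4, 23.3 and 24.1 CPM in WT worms on glucose-rich diets, and 1.80, 2.05 and 2.07 CPM against 8.78, 10.4 and 19.1 CPM on control diets. The groups did not overlap, and the gene fell by 2.15 ± 0.24 (adjusted *p* = 1.47e-05) and 2.7 ± 0.26 (adjusted *p* = 2.57e-06) on the log2 scale. *cyp-25A3* averaged 77.4 ± 7.93 CPM in *lpin-1(RNAi)* worms against 26.6 ± 1.22 CPM in WT worms on glucose-rich diets and 38.6 ± 2.62 CPM against 12.3 ± 2.52 CPM on control diets, increases of 1.54 and 1.65. *cyp-25A2*, between them, had log2 fold changes of 0.20 and 0.26 and was not called. Counts of these genes were fractional in all 12 libraries, which shows reads divided among copies, so the share of each copy is uncertain.

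Families 34 and 35, CYP2-like genes that include well known xenobiotic-inducible P450s of the worm, made up 13 of the 60 tested members and held 6 of the 12 decreases with *lpin-1* RNAi on glucose-rich diets and 9 of the 16 on control diets. *cyp-35A5* had 0.293, 1.12 and 0.978 CPM in *lpin-1(RNAi)* worms against 8.05, 11.6 and 14.6 CPM in WT worms on glucose-rich diets, and 0.310, 0.633 and 0.638 CPM against 3.57, 4.18 and 6.90 CPM on control diets. The gap was wide on both diets, at -3.81 ± 0.40 (adjusted *p* = 8.96e-06) and -3.23 ± 0.43 (adjusted *p* = 4.66e-05). *cyp-35D1*, whose product is known to hydroxylate thiabendazole, had 0.293, 0.136 and 0.204 CPM against 1.47, 1.54 and 1.27 CPM on glucose-rich diets and 0.186, 0.603 and 0.584 CPM against 2.17, 2.40 and 3.43 CPM on control diets. Its log2 fold changes were -2.76 and -2.57, again without overlap. *cyp-35A3* had 5.11, 8.5 and 19.9 CPM in *lpin-1(RNAi)* worms against 20.1, 33.7 and 53.0 CPM in WT worms on glucose-rich diets. On control diets it had 0.0930, 0.875 and 0.691 CPM against 3.09, 5.13 and 11.1 CPM. On glucose-rich diets its highest *lpin-1(RNAi)* library came just under its lowest WT library, with a log2 fold change of -1.68 ± 0.55 (adjusted *p* = 0.0325), and on control diets the gap was wider, at -3.58 ± 0.75 (adjusted *p* = 0.00184).

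*cyp-35A2*, *cyp-35A4* and *cyp-35B1* were called down on control diets alone. *cyp-35A2* had 78.0, 85.7 and 120 CPM in *lpin-1(RNAi)* worms against 156, 194 and 205 CPM in WT worms on glucose-rich diets, and 23.5, 37.2 and 38.9 CPM against 51.1, 67.6 and 94.9 CPM on control diets. The groups were separate on both diets, with log2 fold changes of -0.97 ± 0.24 (adjusted *p* = 0.00682) and -1.10 ± 0.24 (adjusted *p* = 0.00248), so the call on 1 diet rests on the fold threshold. *cyp-35A4* had 2.09, 3.16 and 4.28 CPM against 2.94, 5.53 and 7.16 CPM on glucose-rich diets and 0.589, 0.935 and 0.372 CPM against 0.965, 1.6 and 2.43 CPM on control diets. *cyp-35B1*, a target of the DAF-16 pathway, had 0.251, 0.306 and 1.3 CPM against 0.894, 1.86 and 1.71 CPM on glucose-rich diets and 0.0930, 0.151 and 0.106 CPM against 0.386, 0.545 and 1.00 CPM on control diets. Both overlapped between *lpin-1(RNAi)* and WT on glucose-rich diets, where their log2 fold changes were -0.72 (adjusted *p* = 0.168) and -1.3 (adjusted *p* = 0.0809), and were separate on control diets at -1.34 and -2.41. *cyp-35C1* fell on both diets, by 1.21 and 1.06, as did *cyp-34A9* (1.33 and 1.28) and *cyp-34A10* (1.27 and 1.81).

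Several of these decreases lost the call with 1 library left out, some with little change in the log2 fold change. Without WT replicate 3 on control diets, where the family 35 genes were highest, 9 members in place of 16 were called down on control diets, and *cyp-35A2* (-0.84), *cyp-35A4* (-0.98), *cyp-35B1* (-1.95), *cyp-35C1* (-0.64), *cyp-34A9* (-0.90) and *cyp-34A10* (-1.74) were among those lost. Without *lpin-1(RNAi)* replicate 1 on control diets *cyp-35A2* (-0.95), *cyp-35A4* (-1.31), *cyp-35C1* (-0.97) and *cyp-34A9* (-0.99) were lost. *cyp-35A4* and *cyp-34A10* were also lost there without *lpin-1(RNAi)* replicate 3 (-1.14 and -1.43), *cyp-35A4* without WT replicate 2 (-1.37), and *cyp-34A10* without WT replicate 1 (-1.64) or *lpin-1(RNAi)* replicate 2 (-1.81). On glucose-rich diets *cyp-35A3* was lost without any of 4 libraries, WT replicates 2 and 3 and *lpin-1(RNAi)* replicates 1 and 2 (-1.72 to -1.28, adjusted *p* = 0.0555 to 0.133), and by DESeq2. *cyp-34A10* was lost there without any of 4 libraries, replicates 2 and 3 of WT and 1 and 3 of *lpin-1(RNAi)* worms (-1.23 to -1.10, adjusted *p* = 0.0649 to 0.0868). The log2 fold change of *cyp-35A3* was -2.44 on glucose-rich diets without *lpin-1(RNAi)* replicate 3, and on control diets -2.94 without WT replicate 3 and -4.27 without *lpin-1(RNAi)* replicate 2. That of *cyp-34A10* on control diets was -2.46 without *lpin-1(RNAi)* replicate 1.

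Libraries with the same replicate number were low or high together for some of these genes. *cyp-35A2* and *cyp-35C1* were lowest in replicate 1 and highest in replicate 3 in all 4 groups, and they were the 2 tested members of which this held. Replicate 3 had 1.54, 1.65, 1.31 and 1.86 times the *cyp-35A2* level of replicate 1 in *lpin-1(RNAi)* worms on glucose-rich and on control diets and in WT worms on glucose-rich and on control diets. For *cyp-35A3* the same ratios were 3.89, 7.42, 2.63 and 3.61. The labels give no batch for the replicate numbers. With the replicate number added to the test as a block, 89 of 90 log2 fold changes followed were called or not called as before. The other was that of *cyp-35C1* with *lpin-1* RNAi on control diets, which fell short of the fold threshold (-0.99).

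Members of other families fell as well. *cyp-14A2* had 0.754, 0.850 and 0.897 CPM in *lpin-1(RNAi)* worms against 1.66, 3.92 and 3.02 CPM in WT worms on glucose-rich diets, and 0.403, 0.754 and 0.531 CPM against 1.69, 3.31 and 2.64 CPM on control diets, with log2 fold changes of -1.80 and -2.17. Its neighbour *cyp-14A1* fell by 1.17 and 1.54, the first of these being lost without WT replicate 2 on glucose-rich diets (-0.97), and both fell while *cyp-14A5* of the same subfamily, on another chromosome, rose. *cyp-29A3*, whose product makes eicosanoids from eicosapentaenoic acid, had 2.18, 2.34 and 2.61 CPM in *lpin-1(RNAi)* worms against 4.22, 6.23 and 6.38 CPM in WT worms on glucose-rich diets, and 4.25, 3.41 and 3.13 CPM against 6.90, 8.51 and 9.67 CPM on control diets. Its groups were separate, with log2 fold changes of -1.25 ± 0.20 (adjusted *p* = 0.00036) and -1.21 ± 0.19 (adjusted *p* = 0.00023), and with library totals alone that on control diets was -0.95. *cyp-37B1* had 0.126, 0.0680 and 0.163 CPM against 0.383, 0.315 and 0.487 CPM on glucose-rich diets and 0.713, 0.844 and 0.850 CPM against 1.78, 2.33 and 3.93 CPM on control diets. No *lpin-1(RNAi)* library reached a WT library of the same diet, and the log2 fold changes were -1.70 ± 0.51 (adjusted *p* = 0.0217) and -1.74 ± 0.31 (adjusted *p* = 0.000516). The call on glucose-rich diets rests on 9 and 25 counts and was lost without WT replicate 3 (-1.52) or *lpin-1(RNAi)* replicate 2 (-1.45).

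Glucose raised more P450 genes than it lowered. In *lpin-1(RNAi)* worms 10 of the 60 tested members rose on glucose-rich diets (2.70% of all tested genes were called up) and 5 fell (2.86% were called down). In WT worms 11 rose (1.35% of all tested genes) and 1 fell (1.78% of all tested genes). By the adjusted *p* alone, 13 members rose (5.52% of all tested genes) and 9 fell (7.49%) in *lpin-1(RNAi)* worms, and 13 rose (2.17%) and 2 fell (3.44%) in WT worms. The effects in *lpin-1(RNAi)* and in WT worms come from separate libraries, and 7 genes rose in both, 70% of the list of 10 and 63.6% of the list of 11. Over all tested genes 140 rose in both, 35.3% of the 397 in *lpin-1(RNAi)* worms and 70.4% of the 199 in WT worms. The 7 genes were *cyp-13B1*, *cyp-25A3*, *cyp-34A9*, *cyp-34A10*, *cyp-35A2*, *cyp-35A3* and *cyp-35A4*. The median log2 fold change over the tested members was -0.02 in *lpin-1(RNAi)* worms and 0.23 in WT worms, against 0.00 over all tested genes in both.

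**Figure D4:**
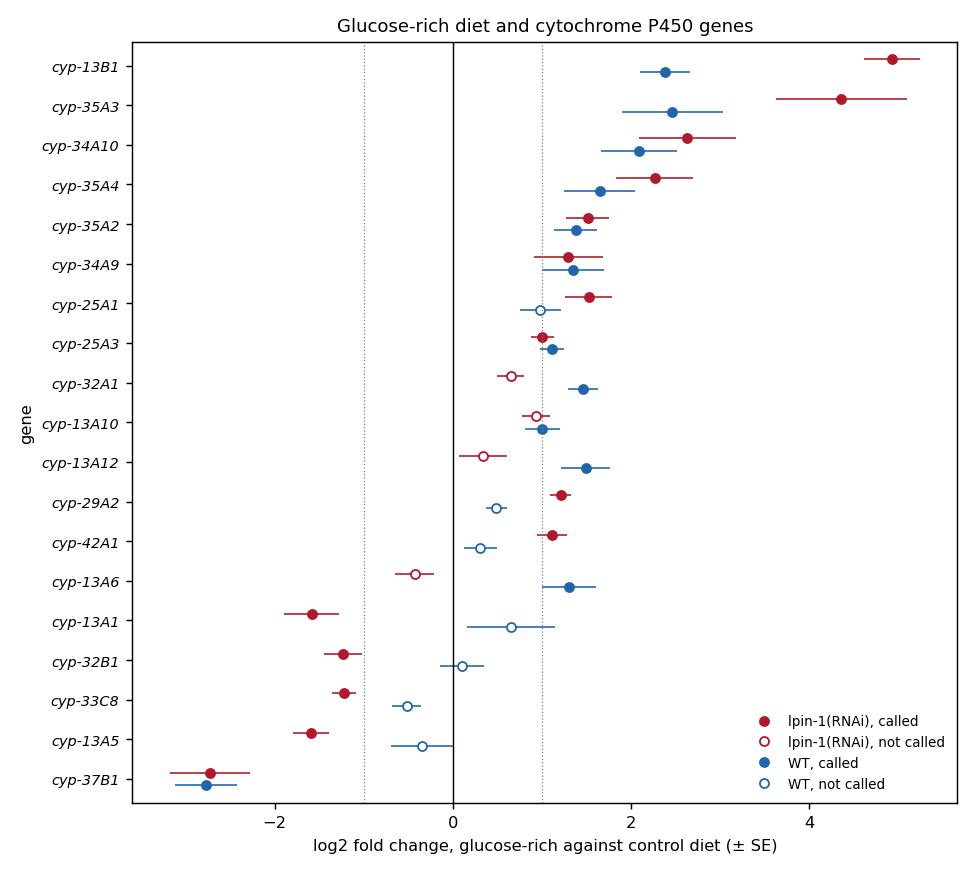
Log2 fold changes (± SE) of glucose-rich against control diets for the 19 P450 genes called in *lpin-1(RNAi)* or in WT worms, with filled points for called and open points for not called, and dotted lines at the fold threshold. *cyp-13B1* is highest in *lpin-1(RNAi)* worms at 4.93 and in WT worms has 2.38, and *cyp-37B1* is lowest at -2.73 and -2.77.

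*cyp-13B1*, a CYP3-like gene on the X chromosome, gave the largest increase with glucose among the tested members in *lpin-1(RNAi)* worms. It had 12.7, 9.65 and 13.8 CPM on glucose-rich diets against 0.403, 0.392 and 0.372 CPM on control diets in *lpin-1(RNAi)* worms, and 5.11, 4.94 and 6.38 CPM against 0.820, 0.654 and 1.67 CPM in WT worms. No libraries of the diets overlapped, and glucose raised it by 4.93 ± 0.31 (adjusted *p* = 8.4e-07) in *lpin-1(RNAi)* worms and by 2.38 ± 0.28 (adjusted *p* = 0.000236) in WT worms. The difference between these, 2.54 ± 0.43, passed the test of the interaction (adjusted *p* = 0.00869). Set against WT worms, *lpin-1(RNAi)* worms were higher by 1.14 on glucose-rich diets and lower by 1.41 on control diets. The first of these calls was lost without *lpin-1(RNAi)* replicate 3 on glucose-rich diets (0.97) and the other without WT replicate 3 on control diets (-0.89).

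Families 34 and 35, with 13 of the 60 tested members, gave 5 of the 10 increases with glucose in *lpin-1(RNAi)* worms and 5 of the 11 in WT worms. By the fitted fold changes, *cyp-35A3* was 20.5-fold higher on glucose-rich than on control diets in *lpin-1(RNAi)* worms (log2 fold change 4.36 ± 0.74, adjusted *p* = 0.00171). In WT worms it was 5.51-fold higher (2.46 ± 0.57, adjusted *p* = 0.0245). *cyp-35A2* rose 2.85-fold and 2.60-fold (1.51 ± 0.24 and 1.38 ± 0.24) and *cyp-35A4* 4.80-fold and 3.13-fold (2.26 ± 0.44 and 1.65 ± 0.40). By the values per library given above, glucose-rich and control libraries did not overlap for any of the 3 genes in either RNAi group. *cyp-34A10* had 0.628, 1.02 and 0.571 CPM on glucose-rich diets against 0.186, 0.121 and 0 CPM on control diets in *lpin-1(RNAi)* worms, and 1.15, 2.00 and 2.19 CPM against 0.531, 0.291 and 0.460 CPM in WT worms. It rose by 2.63 ± 0.54 (adjusted *p* = 0.00594) and 2.09 ± 0.43 (adjusted *p* = 0.0128), and *cyp-34A9* by 1.3 and 1.35. *cyp-35A5* and *cyp-35B1* were not called in either group, at 0.65 (adjusted *p* = 0.398) and 2.32 (adjusted *p* = 0.0515) in *lpin-1(RNAi)* worms and 1.23 (adjusted *p* = 0.0557) and 1.22 (adjusted *p* = 0.252) in WT worms, nor was *cyp-35C1* at 0.71 and 0.86. The *cyp-35A* genes summed to 110 ± 31.4 CPM on glucose-rich diets against 35 ± 8.98 CPM on control diets in *lpin-1(RNAi)* worms, and 237 ± 46.3 CPM against 84.2 ± 28.8 CPM in WT worms.

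Many of these increases lost the call with 1 library left out, some with little change in the log2 fold change. *cyp-34A9* and *cyp-35A4* lost the call in WT worms without any of 4 libraries, replicates 1 and 2 on control diets and replicates 2 and 3 on glucose-rich diets (1.14 to 1.29 and 1.36 to 1.61). *cyp-35A3* lost it without replicates 1 or 2 on control diets or replicate 3 on glucose-rich diets (2.06 to 2.31), and *cyp-34A10* without the last of these (1.93, adjusted *p* = 0.0506). The count of members raised in WT worms was 7 and 6 without replicates 1 and 2 on control diets and 5 without replicate 3 on glucose-rich diets, in place of 11. In *lpin-1(RNAi)* worms *cyp-34A9* was lost without any of 6 libraries, which were replicates 1 and 3 on control diets, all 3 on glucose-rich diets and WT replicate 2 on glucose-rich diets (0.96 to 1.3, adjusted *p* = 0.0532 to 0.137). *cyp-35A4* was lost in *lpin-1(RNAi)* worms with replicate number 3 left out of all 4 groups (1.78, adjusted *p* = 0.055). There the log2 fold change of *cyp-35A3* was 5.0 without replicate 2 on control diets and 3.62 without replicate 3 on glucose-rich diets, and that of *cyp-34A10* was 3.23 without replicate 1 on control diets. In WT worms that of *cyp-35A3* was 3.10 without replicate 3 on control diets.

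**Figure D5:**
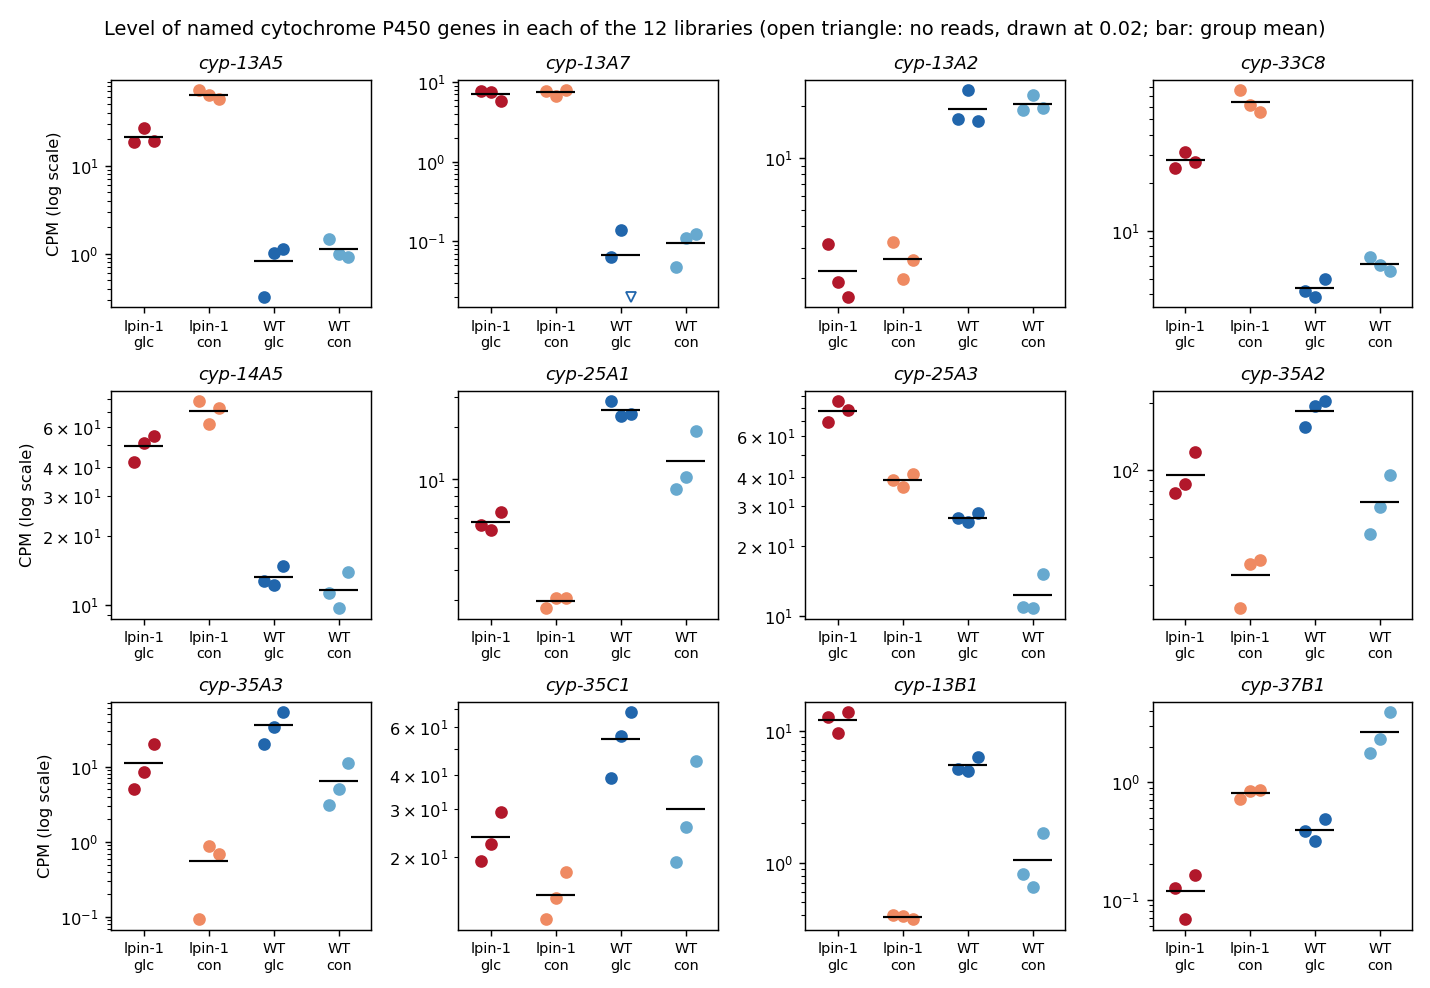
CPM on a log scale for 12 P450 genes in the 12 libraries, with groups from left to right *lpin-1(RNAi)* glucose-rich, *lpin-1(RNAi)* control diet, WT glucose-rich and WT control diet (glc and con), points for replicates 1 to 3 from left to right, bars for group means and an open triangle at 0.02 for a library with no reads. *cyp-35A3* spans 0.0930 to 53.0 CPM, and replicate 3 is the highest of its group in 3 of the 4 groups.

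Genes outside these families also rose with glucose. *cyp-25A1* had 5.44, 5.1 and 6.48 CPM on glucose-rich diets against 1.80, 2.05 and 2.07 CPM on control diets in *lpin-1(RNAi)* worms (1.52 ± 0.26, adjusted *p* = 0.002), and its log2 fold change of 0.98 in WT worms (adjusted *p* = 0.0259) was just under the fold threshold. *cyp-25A3* stood just over it in *lpin-1(RNAi)* worms at 1.00 ± 0.13 (adjusted *p* = 0.000185) and at 1.11 ± 0.13 (adjusted *p* = 0.000243) in WT worms. The first of these calls was lost without any *lpin-1(RNAi)* replicate on control diets or replicates 2 or 3 on glucose-rich diets (0.88 to 1.00), and by DESeq2 (0.99). *cyp-42A1* rose by 1.11 ± 0.17 (adjusted *p* = 0.000814) in *lpin-1(RNAi)* worms, with all 3 glucose-rich libraries above all 3 control ones, and had 0.31 ± 0.18 (adjusted *p* = 0.449) in WT worms. Its call was lost without *lpin-1(RNAi)* replicate 2 on control diets (0.97) or replicate 3 on glucose-rich diets (0.92), and the difference between the glucose effects was 0.80 ± 0.25 (adjusted *p* = 0.18). *cyp-29A2* rose by 1.21 ± 0.12 in *lpin-1(RNAi)* worms and had 0.49 ± 0.12 (adjusted *p* = 0.028) in WT worms.

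In WT worms 4 members rose with glucose that were not called in *lpin-1(RNAi)* worms. *cyp-13A12*, which makes eicosanoids in the response to reoxygenation, had 1.26, 0.850 and 0.937 CPM on glucose-rich diets against 0.992, 0.724 and 0.638 CPM on control diets in *lpin-1(RNAi)* worms, and 1.6, 1.72 and 2.34 CPM against 0.772, 0.618 and 0.628 CPM in WT worms. The diets overlapped in *lpin-1(RNAi)* worms (0.34 ± 0.27, adjusted *p* = 0.417) and were separate in WT worms (1.49 ± 0.27, adjusted *p* = 0.00584), and the difference between them was -1.15 (adjusted *p* = 0.229). The call in WT worms was lost with replicate number 3 left out of all 4 groups (1.26, adjusted *p* = 0.151). *cyp-32A1* rose by 1.46 in WT worms, with 0.65 in *lpin-1(RNAi)* worms, and *cyp-13A10* by 1.01, with 0.94. The call of *cyp-13A10* was lost without WT replicates 2 or 3 on control diets or replicate 3 on glucose-rich diets (0.87 to 0.97). *cyp-13A6* rose by 1.3 in WT worms, a call lost without any of 5 libraries, all 3 WT replicates on control diets and replicates 2 and 3 on glucose-rich diets (1.16 to 1.40, adjusted *p* = 0.0529 to 0.0867), and had -0.43 in *lpin-1(RNAi)* worms.

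*cyp-37B1* was the one member that glucose lowered in both RNAi groups, and it fell in all 4 comparisons of 2 groups. By the values above, no library on glucose-rich diets reached one on control diets, with log2 fold changes of -2.73 ± 0.45 (adjusted *p* = 0.00139) in *lpin-1(RNAi)* worms and -2.77 ± 0.35 (adjusted *p* = 0.000397) in WT worms. The scaled ratios of summed counts were 0.145 (95% interval 0.0637 to 0.293) and 0.143 (0.0902 to 0.217). Its exons overlap F28G4.2 on the other strand. *cyp-13A1*, *cyp-13A5*, *cyp-32B1* and *cyp-33C8* fell with glucose in *lpin-1(RNAi)* worms, by 1.58, 1.59, 1.23 and 1.22, and their log2 fold changes with *lpin-1* RNAi on control diets, which rest on the same *lpin-1(RNAi)* libraries, were 3.83, 5.86, 1.97 and 3.37. In WT worms their log2 fold changes with glucose were 0.65, -0.35, 0.10 and -0.52, and none was called. The differences between the effects were -2.24, -1.25, -1.33 and -0.70, with adjusted *p* = 0.0917, 0.218, 0.0733 and 0.167. With replicate number 1 left out of all 4 groups, the decreases with glucose of *cyp-13A1* (-1.22, adjusted *p* = 0.112) and *cyp-32B1* (-1.26, adjusted *p* = 0.0678) were not called.

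The interaction was called for 1 member upward (0.810% of all tested genes) and 1 downward (0.374% of all tested genes), *cyp-13B1* at 2.54 and *cyp-13A6* at -1.73 ± 0.37 (adjusted *p* = 0.0335). By the adjusted *p* alone 2 members were positive (1.05% of all tested genes) and 2 negative (0.558%). At an unadjusted *p* under 0.05, 16 of the 60 tested members (9.94% of all tested genes) differed between the glucose effects. The call of *cyp-13A6* was lost without any of 9 of the 12 libraries (-1.86 to -1.59, adjusted *p* = 0.0632 to 0.106), the exceptions being *lpin-1(RNAi)* replicates 2 and 3 on control diets and WT replicate 1 on glucose-rich diets.

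Of the members with known roles, the eggshell genes were not called in any comparison. *cyp-31A2* had 113.5, 113.6 and 108.2 CPM in *lpin-1(RNAi)* worms against 146, 148 and 129 CPM in WT worms on glucose-rich diets, and 107, 105 and 108 CPM against 160, 139 and 131 CPM on control diets. *cyp-31A3* had 57.9, 54.1 and 56.0 CPM against 59.9, 63.7 and 58.3 CPM and 50.9, 52.4 and 46.9 CPM against 71.1, 63.6 and 52.2 CPM. Levels were lower with *lpin-1* RNAi, by log2 fold changes of -0.34 and -0.43 for *cyp-31A2* and -0.12 and -0.31 for *cyp-31A3*, all short of the fold threshold. For *cyp-31A2* every *lpin-1(RNAi)* library was below every WT library on both diets, and *cyp-31A3* overlapped on control diets. *cyp-33E2*, a pharyngeal enzyme of eicosanoid formation, had 12.3, 12.7 and 11.3 CPM in *lpin-1(RNAi)* worms against 9.07, 9.17 and 10.2 CPM in WT worms on glucose-rich diets, and 12.4, 10.6 and 13.4 CPM against 8.34, 8.0 and 11.3 CPM on control diets, with log2 fold changes of 0.35 (adjusted *p* = 0.0917) and 0.40 (adjusted *p* = 0.0458). *cyp-44A1* had 45.3, 45.0 and 47.0 CPM against 54.6, 47.9 and 47.9 CPM on glucose-rich diets and 45.8, 43.6 and 46.5 CPM against 51.7, 48.5 and 53.6 CPM on control diets. It was the steadiest of the tested members in that no log2 fold change exceeded 0.18 in size, and its exons overlap *npp-24* on the same strand. *cyp-36A1*, which acts downstream of the hypoxia factor HIF-1 in worms, had 1.00 (adjusted *p* = 0.000194) on glucose-rich diets, just short of the fold threshold, and 0.78 on control diets.

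Another 14 members were too low to test, with at most 19 counts in any library. *cyp-35A1* had 5, 3 and 8 counts in glucose-fed *lpin-1(RNAi)* worms, 5, 4 and 0 in control-fed *lpin-1(RNAi)* worms, 1, 2 and 3 in WT worms on glucose-rich diets and 1, 0 and 0 in WT worms on control diets. *cyp-35B3* had no counts in any library, and *cyp-35B2* had none in the 6 *lpin-1(RNAi)* libraries, 0, 2 and 5 in WT worms on glucose-rich diets and 0, 0 and 1 in WT worms on control diets. The other 11 were *cyp-13A3*, *cyp-13A11*, *cyp-14A3*, *cyp-25A6*, *cyp-33B1*, *cyp-33C1*, *cyp-33C6*, *cyp-33C11*, *cyp-33C12*, *cyp-34A1* and *cyp-34A7*. Together with the 34 members called somewhere and the 26 tested members called nowhere, these make up the 74.

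Among genes that serve P450 enzymes, the reductase gene *emb-8* averaged 202 ± 4.14 CPM in *lpin-1(RNAi)* worms against 172 ± 14.5 CPM in WT worms on glucose-rich diets and 179 ± 10.8 CPM against 181 ± 15.1 CPM on control diets, with log2 fold changes of 0.24 (adjusted *p* = 0.06) and -0.02 (adjusted *p* = 0.898). The cytochrome b5 gene *cytb-5.1* was higher in *lpin-1(RNAi)* worms on both diets, at 168 ± 5.61 CPM against 70.2 ± 7.36 CPM and 203 ± 12.4 CPM against 76.5 ± 9.43 CPM, increases of 1.26 and 1.41. It was the 1 of 5 listed redox partners and epoxide hydrolases that was called with *lpin-1* RNAi. Of 7 tested heme transport and heme homeostasis genes, *hrg-4* (-1.29) and *hrg-6* (-1.39) were called down with *lpin-1* RNAi on glucose-rich diets. Of all tested genes 4.21% were called down there. On control diets the 2 genes had -0.95 (adjusted *p* = 0.00944) and -0.99 (adjusted *p* = 0.0272), just short of the fold threshold. Of 17 regulators linked to detoxification or fat genes, 1 was called up on glucose-rich diets and 2 on control diets, near the shares of all tested genes (8.04% and 10.0%). These were *pqm-1* on both diets (1.24 and 1.88) and *elt-2*, the intestinal GATA factor also counted as an intestinal marker, on control diets (1.11). The P450 gene *daf-9*, of dafachronic acid synthesis, which carries no *cyp-* name and is not among the 74, had log2 fold changes of 0.45 (adjusted *p* = 0.275) and 0.42 (adjusted *p* = 0.266).

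Shares called were set beside those of 2 other large detoxification families. With *lpin-1* RNAi 25% of the tested P450 genes were called up on each diet, against 18.0% and 14.8% of 61 tested *ugt* genes (UDP-glycosyltransferases) and 13.2% on both diets of 38 tested *gst* genes (glutathione transferases), on glucose-rich and on control diets. The shares called down were 20.0% and 26.7% for P450, 26.2% and 29.5% for *ugt* and 21.1% and 26.3% for *gst* genes. With glucose 16.7% of P450 genes in *lpin-1(RNAi)* worms and 18.3% in WT worms were called up, against 8.20% of *ugt* genes in both and 2.63% and 5.26% of *gst* genes. The shares called down with glucose were 8.33% and 1.67% for P450, 3.28% and 4.92% for *ugt* and 7.89% and 15.8% for *gst* genes. These shares are descriptions, and the differences between families were not tested.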

How the data were processed

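RNA of whole adult worms was sequenced in 12 libraries from a stranded kit. The authors deposited expected counts per gene, estimated by RSEM; the submitters' processing notes name STAR 2.7.0e, RSEM 1.3.1, DESeq2 1.22.2 and the builds WBcel235 and ce11. Whether counting used strand is not given in the sources used here, so reads of *cyp-13A6*, *cyp-14A2*, *cyp-34A9*, *cyp-35B1*, *cyp-36A1*, *cyp-37B1* and *cyp-43A1* cannot be told apart from those of genes overlapping on the other strand. Ambiguous reads are divided among copies: 10 members had fractional counts.

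The deposited expected counts were rounded to whole numbers. Genes passing filterByExpr (minimum count 10) were kept, which left 14696 of 46778. The quasi-likelihood test of edgeR 4.0.16 (R 4.3.3, limma 3.58.1) was fitted with TMM scaling and 1 mean per group on all 12 libraries (8 residual degrees of freedom), with Benjamini-Hochberg adjustment over all tested genes. The 5 comparisons were glucose in *lpin-1(RNAi)* and in WT worms, *lpin-1* RNAi on either diet, plus the interaction, which is the glucose effect in *lpin-1(RNAi)* minus that in WT worms. A call needed an adjusted *p* under 0.05 and an absolute log2 fold change above 1. The SE is the size of the log2 fold change divided by the square root of F. CPM are counts per 1000000 of the TMM-scaled totals, and RPKM divide these by merged exon length. The test was checked on simulated counts. Intervals of count ratios are exact, at 95%. Gene names, positions and lengths came from the WBcel235 annotation.

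Every member called in any comparison is named. Values per library are given for up to 5 increases and 5 decreases per comparison with at least 10 counts in each library of the higher group, for *cyp-42A1* and for members with a known role; other members shown per library were chosen after their values were seen. Grouping by clan is background knowledge. Members and lists were chosen with earlier results of these data known. Alternatives were DESeq2 1.42.0, other scalings and filters, the adjusted *p* alone, the compared groups alone, a replicate block, members with divided reads left out, and each library or replicate number left out.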

Additional observations from a re-analysis of the deposited data

Results flagged for a closer look

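For 4 members glucose acted differently in *lpin-1(RNAi)* than in WT worms by the interaction test (edgeR, adjusted over all tested genes). *cyp-13B1* rose more in *lpin-1(RNAi)* worms, 4.93 against 2.38, a difference of 2.54 ± 0.43 (adjusted *p* = 0.00869). *cyp-29A2*, a CYP4-like gene, had 1.21 in *lpin-1(RNAi)* worms against 0.49 in WT worms, a difference of 0.72 ± 0.16 (adjusted *p* = 0.0476). *cyp-13A6* had -0.43 against 1.3, a difference of -1.73 ± 0.37 (adjusted *p* = 0.0335), and *cyp-33C7* had -0.80 against 0.04, a difference of -0.84 ± 0.17 (adjusted *p* = 0.0254). With 1 replicate number left out of all 4 groups, the adjusted *p* of *cyp-13B1* was 0.22, 0.0123 and 0.125, and that of *cyp-33C7* 0.442, 0.0417 and 0.44, without numbers 1, 2 and 3. *cyp-13A6* (0.284 to 0.31) and *cyp-29A2* (0.133 to 0.457) passed in none of the 3, at differences of -1.91 to -1.52 and 0.65 to 0.80.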

How the results depend on the processing

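The library totals limit what can be seen of low members: a filter of at least 10 counts in every library removes genes that are near 0 in 1 group. With it, glucose raised 5 and lowered 2 members in *lpin-1(RNAi)* worms and raised 5 and lowered 0 in WT worms, *lpin-1* RNAi lowered 7 on glucose-rich diets and raised 9 and lowered 8 on control diets, and the interaction was called for 0 members in either direction (edgeR; at an unadjusted *p* under 0.05 and without this filter, 26 members (17.4% of all tested genes) differed with glucose in WT worms and 16 (9.94%) in the interaction, and DESeq2 called 1 down with glucose in WT worms). With the adjusted *p* alone, glucose lowered 9 members in *lpin-1(RNAi)* worms and 2 in WT worms, and the interaction had 2 up and 2 down. DESeq2 gave 4 members down in the interaction. Apart from the replicate block and the libraries or replicate numbers left out, given below, the other alternatives left these counts within 1.5 times. Shares over all tested genes were worked out for the main test, for the adjusted *p* alone and for the unadjusted *p*. The counts of members under the other alternatives, here and below, therefore have no such share to be read against.

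With 1 library or 1 replicate number left out, glucose raised 7 to 11 and lowered 3 to 6 members in *lpin-1(RNAi)* worms and raised 5 to 12 and lowered 1 in WT worms. *lpin-1* RNAi raised 13 to 16 and lowered 9 to 15 on glucose-rich diets and raised 15 to 16 and lowered 9 to 16 on control diets, and the interaction had 0 to 1 up and 0 to 2 down. Of the 90 log2 fold changes of named genes that were followed through the alternatives, 87 of them called, calls were lost 138 times and gained 1 time (*cyp-42A1* on control diets with library totals, 1.02), and none reversed. Genes that an alternative did not test are not counted as lost. With at least 10 counts in every library, 48 of the 90 were called or not called as before and 2 calls were lost. The rest were not tested under that filter. With replicate numbers 1, 2 and 3 left out in turn, 14, 12 and 20 of the 87 calls were lost. Calls gained by members not followed appear in the counts alone, such as the 19 increases on control diets with library totals.

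With the replicate block, 2 members were called up and 2 down in the interaction, and *cyp-35C1* on control diets fell short of the fold threshold (-0.99). Same-numbered libraries of different groups correlated at 0.0365 to 0.532 in their deviations from group means (12 of 18 pairs over 0.1), and 12 of 12 libraries correlated best with their own number, a hint from the data and not from the labels.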
